A study of Mus musculus with 8 samples.

Results

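The transcription factor p53, encoded by Trp53, its paralogs Trp63 and Trp73, and the enzymes that hold p53 down (Mdm2, Mdm4, Ppm1d and Usp7) were followed in kidneys of mouse embryos with and without p53. These 7 genes, of 17305 named on the array, were read by 14 of its 41174 probes, taken by the gene symbol to which each probe's RefSeq identifier maps. Of the 14, 10 probes, covering all 7 genes, were bright enough to be tested, among 20865 tested probes. The kidneys were C57BL/6 embryonic kidney at embryonic day 15.5, either p53 null or p53 wild type, and the groups shared strain, age and tissue. The sources used here do not say which stretch of Trp53 the null allele lacks, or how many embryos or litters were pooled for a replicate. Null and wild-type RNA were hybridised together on 8 arrays in 2 colours, and every ratio below is the log2 of null over wild type. Replicate 1 had 4 arrays on slide 1, and replicates 2 and 3 had 2 arrays each on slide 2, with the dyes Cy3 and Cy5 swapped within every pair.

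In unstressed cells p53 protein is kept scarce. Mdm2, a ubiquitin ligase, marks it for breakdown, and Mdm4, a related protein with little ligase activity of its own, blocks its activation domain. Mdm2, Ppm1d and other negative regulators are themselves transcribed by p53, which closes a feedback loop, and mouse embryos without Mdm2 die unless p53 is removed as well. Loss of Mdm2 in cells of the developing kidney is known to be harmful through p53. The paralogs p63 and p73 bind similar DNA sites but have tissue roles of their own, p63 in stratified epithelia and p73 in multiciliated cells and neurons.

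Since Mdm2 and Ppm1d are transcribed by p53, the RefSeq windows of 300 bases around the members' start sites (250 before and 50 after, build GRCm38.p6) were searched for the p53 half-site consensus. The consensus has 10 positions, reads alike on both strands and was the only motif searched. It was present in 8.36% of 32851 such windows of the genome. Windows were found for 6 of the 7 members, and those of 3 genes held 1 half-site each. The 250 bases before each of the 3 start sites are shown with the half-site in capitals, to let the sequence be set beside the expression values that follow. The windows are chr11:69580109-69580358 on the plus strand for Trp53, chr10:117710759-117711008 on the minus strand for Mdm2 and chr11:85311004-85311253 on the plus strand for Ppm1d.
Trp53: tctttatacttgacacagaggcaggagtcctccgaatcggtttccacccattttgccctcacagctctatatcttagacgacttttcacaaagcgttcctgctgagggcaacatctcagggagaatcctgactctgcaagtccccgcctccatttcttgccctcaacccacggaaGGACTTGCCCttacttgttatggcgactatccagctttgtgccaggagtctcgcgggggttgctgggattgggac
Mdm2: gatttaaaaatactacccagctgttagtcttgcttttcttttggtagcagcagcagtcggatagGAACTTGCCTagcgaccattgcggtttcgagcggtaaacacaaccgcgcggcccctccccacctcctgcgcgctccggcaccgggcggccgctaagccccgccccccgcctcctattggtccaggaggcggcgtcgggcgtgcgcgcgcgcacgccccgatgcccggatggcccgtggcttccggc
Ppm1d: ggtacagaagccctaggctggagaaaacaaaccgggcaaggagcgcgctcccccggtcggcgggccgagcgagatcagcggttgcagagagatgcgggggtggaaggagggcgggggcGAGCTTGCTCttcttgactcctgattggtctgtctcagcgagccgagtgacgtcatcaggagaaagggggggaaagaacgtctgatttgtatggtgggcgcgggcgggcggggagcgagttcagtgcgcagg

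The half-site began 75 bases before the start site of Trp53, 186 bases before that of Mdm2 and 132 bases before that of Ppm1d. A pair of half-sites within 13 bases of each other, the full p53 element, was found in none of the members' 8 windows and in 0.0731% of all windows. The p53 elements known from Mdm2 lie inside the gene, beyond this window. The windows of Trp73, Mdm4 and Usp7 held no half-site.

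The arrays fell into 2 sets that followed the slide. Between replicate 1 and either of the others, the probe levels of wild-type RNA differed with an SD of 0.83 to 0.88 (log2), against 0.16 and 0.17 between duplicate arrays of replicate 1. Between replicates 2 and 3 that SD was 0.14 with wild-type RNA in Cy3 and 0.15 with it in Cy5, no larger than between duplicate arrays, and the array names give the wild-type RNA of all 4 arrays of slide 2 the same number. Replicates 2 and 3 may therefore share their wild-type RNA, so that their likeness counts as no independent evidence, and slide and replicate cannot be told apart. For null RNA the SD between replicates 2 and 3 was larger than between duplicate arrays of replicate 1. It was 0.19 in Cy5 and 0.21 in Cy3, against 0.16 and 0.14. Of 12 kidney markers, 10 were tested, and all 10 were above background in both genotypes on all 8 arrays (among them Six2, Pax2, Wt1 and Gata3). The median ratio of these 10 kidney markers was −0.15, −0.15 and −0.02 over replicates 1 to 3, but some of them moved with the slide. Foxd1 was 0.12, −0.56 and −0.92, and Cited1 was −0.245, 0.446 and 0.515, while Pax2 was −0.06, −0.05 and −0.05. Markers of blood and liver moved with the slide too. The median ratio of 4 erythroid markers was −0.41, 1.27 and 1.60 over replicates 1 to 3, and that of 3 liver markers was −0.08, 1.03 and 0.88. Of the liver list of 5, Ttr was above background on no array. The 6 macrophage markers, all tested, had medians of 0.26, 0.60 and 0.62 over the replicates; Tyrobp, Aif1, Adgre1 and Ptprc were above 0 in all 3, while C1qa and Csf1r were below 0 in replicate 1, and each of the 6 had an adjusted p of at least 0.27. The part of these cells in the ratios below was not tested. In bulk tissue, fewer cells of a type and less RNA per cell cannot be told apart.

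Trp53 was lower in null kidneys on the brighter of its 2 probes, most of all in replicate 1, and was not lower on the other. The brighter probe, A_52_P491849, was spotted 10 times on each array. In replicate 1 it gave ratios of −1.11 and −1.27, and −1.18 and −1.31 on the duplicate pair, each with the null RNA in Cy5 and then in Cy3. It gave −0.37 and −0.58 in replicate 2, and −0.41 and −0.49 in replicate 3. Every array of replicate 1 was lower than every array of slide 2, and all 8 were below 0. Among all tested probes, 7.75% were lower on all 8 arrays. The replicate values were −1.22, −0.47 and −0.45, that is 0.43, 0.72 and 0.73 of the wild-type level. Their mean was −0.71 ± 0.44 (SD, n = 3; SE 0.19, 95% interval −1.22 to −0.20), or 0.61 of wild type.

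In limma's moderated test on the 3 replicate values the Trp53 difference had an unadjusted p of 0.0171 and an adjusted p of 0.27, so it was not called. At an adjusted p of 0.05, none of the 10 member probes was called, and 0% of all probes were. At an unadjusted p of 0.05, 1 of the 10 passed, against 17.0% of all probes (3544). With the 8 arrays fitted singly and the replicate as a block, which treats arrays of a replicate as correlated rather than averaging them, the same Trp53 probe was the only member called (−0.72, adjusted p = 0.0207), with 6.06% of probes called. Without replicate 1 the mean was −0.46 (adjusted p = 1.67e-06), and 5 of the 10 member probes were called, beside 56.1% of all probes. That fit rests on the spread between 2 replicates that may share wild-type RNA, and its p-values are then too small. A sign permutation over 3 replicates cannot go below 0.25.

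**Figure D1:**
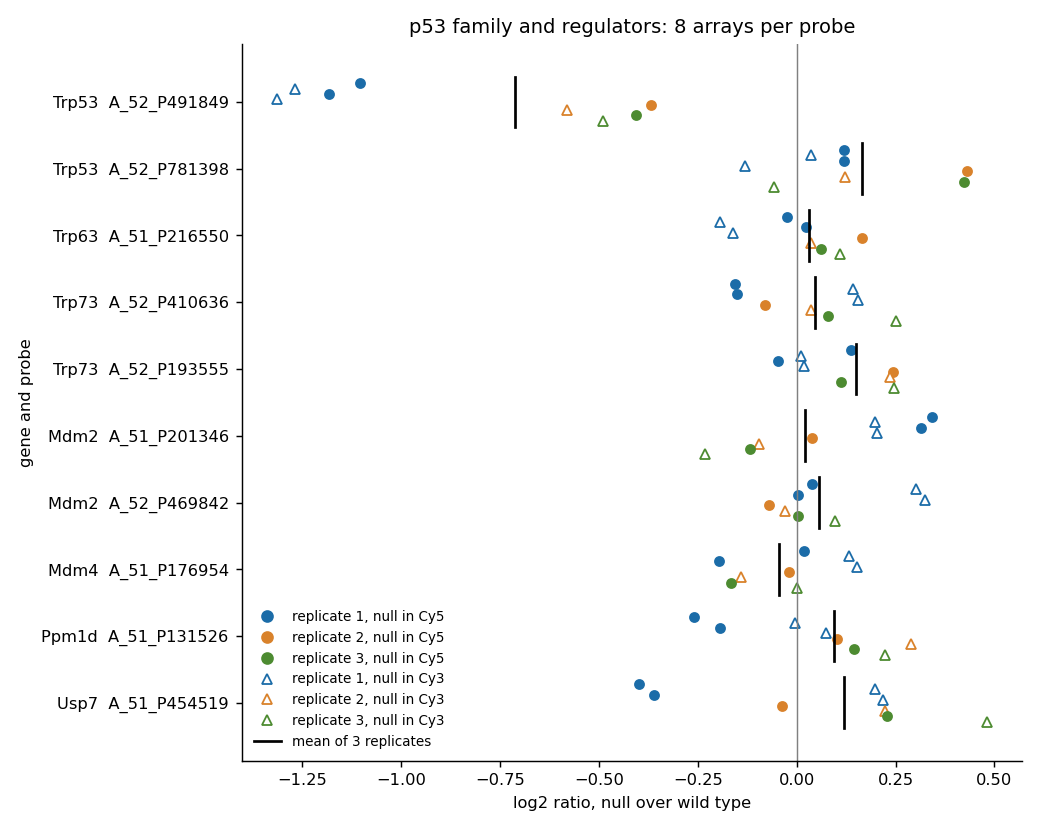
Log2 ratio of null over wild type (horizontal axis) on each of the 8 arrays for the 10 tested probes of the 7 genes, with circles for null RNA in Cy5, triangles for null RNA in Cy3, a colour for each replicate and a black line for the mean of the 3 replicates. All points of Trp53 A_52_P491849 lie between −1.31 and −0.37, while the points of the other 9 probes lie on both sides of 0.

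The repeated spots of a probe varied little within an array. Over the 8 arrays 76 spots of the brighter Trp53 probe were usable, and all 76 were below 0, from −1.46 to −0.27. The SD between spots of an array, which is technical error alone, ran from 0.05 to 0.13. The mean was −1.22 on slide 1 and −0.46 on slide 2; with 1 replicate on slide 1 and RNA samples that differ between the slides, this gap was not tested. The other probe printed 10 times, for Mdm2, had an SD between spots of 0.04 to 0.10.

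The signal behind the Trp53 ratio was well above background in null as well as in wild-type RNA on all 8 arrays. Net brightness of A_52_P491849 in null RNA, before any normalization, was 298 and 288 on the 2 arrays of replicate 1 with null RNA in Cy5, 292 in replicate 2 and 313 in replicate 3. Wild-type RNA in the same dye gave 963 and 1026 in replicate 1, 330 in replicate 2 and 298 in replicate 3. In these Cy5 readings the null level was alike on both slides, and the wild-type level was the one that differed. In Cy3 both were lower on slide 2, the wild-type level by more. The null RNA in Cy3 gave 172 and 183 in replicate 1, 121 in replicate 2 and 130 in replicate 3. Wild-type RNA in Cy3 gave 511 and 520, 134 and 135. These are scanner units, slide 1 was read with an extended dynamic range setting and slide 2 was not, and no level is compared between probes.

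**Figure D2:**
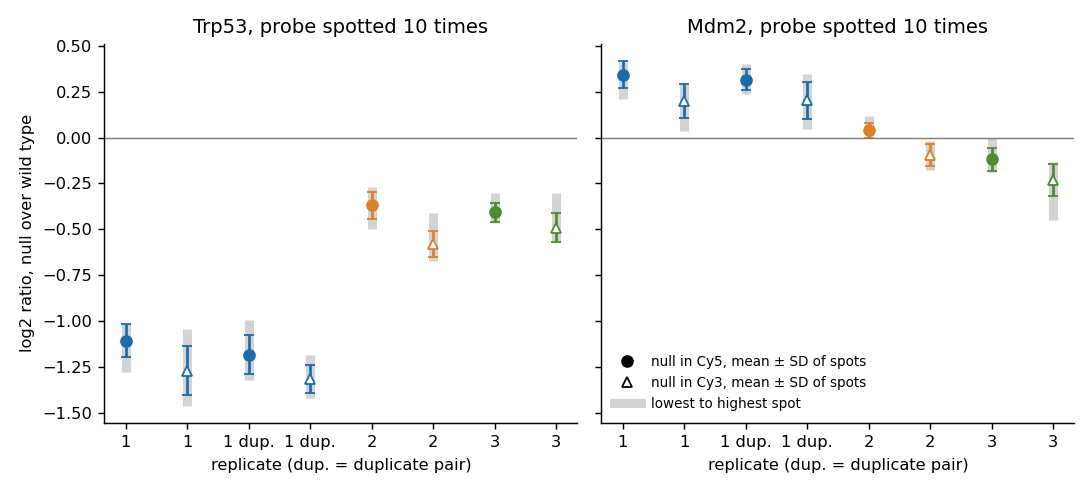
Log2 ratio of null over wild type (vertical axis) for the probes of Trp53 (left) and Mdm2 (right) that were spotted 10 times, by array (horizontal axis), with the mean and SD of the spots and a grey bar from the lowest to the highest spot. All 76 Trp53 spots lie below 0, while Mdm2 spots lie above 0 in replicate 1 and below it in replicate 3.

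The other Trp53 probe, A_52_P781398, gave 0.12 and 0.04, then 0.12 and −0.13 on the arrays of replicate 1, 0.43 and 0.12 in replicate 2, and 0.42 and −0.06 in replicate 3. It was higher in null on 6 arrays and lower on 2, both of these with null RNA in Cy3. The mean was 0.32 with null RNA in Cy5 and 0.01 with it in Cy3. Averaged over both orientations, in which a dye effect cancels, it was 0.17 ± 0.12 (SD, n = 3; 95% interval −0.07 to 0.40; limma adjusted p = 0.377). The ratio of the brighter probe minus that of the other was −1.25, −0.75 and −0.63 over the replicates. The probes of Trp53 thus disagreed in every replicate. The sources used here do not give the stretch of transcript that each reads, and a probe outside the missing part of the gene would not check the genotype labels.

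Among 12000 named genes, each read by its brightest probe, Trp53 ranked 185th from the lowest mean ratio. It ranked 10th in replicate 1, 1024th in replicate 2 and 1182nd in replicate 3. The genes whose 8 array ratios lay nearest to those of the brighter Trp53 probe, by root mean square distance, were Wwtr1 (distance 0.26), Lum (0.33), Tlcd2 (0.35), Mrc2 (0.36) and Fzd4 (0.36), against a median distance of 0.95 over 11999 genes. Wwtr1 encodes the transcriptional coactivator TAZ, Lum a matrix proteoglycan, Mrc2 a collagen receptor and Fzd4 a Wnt receptor. Wwtr1 was −1.08, −0.31 and −0.04 over the replicates on the probe compared, its brightest. A further tested probe of Wwtr1, A_52_P571444, differed from it, with −0.84, −0.83 and −0.50. Lum was −0.83, −0.27 and −0.55, and Mrc2 −0.81, −0.47 and −0.35. Like Trp53, these genes were lowest in replicate 1, which is what the measure selected.

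Trp63 and Trp73, the paralogs, were dim, and none of their 3 tested probes was called. On 2 of the 3, A_51_P216550 of Trp63 and A_52_P193555 of Trp73, wild-type RNA was not above background on slide 2, so that they entered the test through null RNA alone, and their p-values, which use these slide 2 ratios, support nothing about a difference or its absence. Trp63 probe A_51_P216550 ranged over the 8 arrays from −0.19 to 0.17 with a median of 0.03. Its replicate values were −0.09, 0.10 and 0.09 (limma adjusted p = 0.851). Null RNA was well above background on all 8 arrays, but wild-type RNA only on the 4 arrays of slide 1. On slide 2 the wild-type level was therefore set per array at the higher of the probe's own signal and the dimmest signal well above background. Null over that level was 1.07-fold in replicate 2 and 1.06-fold in replicate 3. The level so set equalled the probe's own dim signal, so these values restate the measured ratios and do not show that null was higher. The second Trp63 probe, A_52_P17264, was above background in wild-type RNA on 1 array and in null RNA on none, and was not tested.

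Trp63 is known from basal cells of stratified epithelium and urothelium, so the markers of those cells were read beside it. Of 11 such markers 5 were tested, and their median ratio was −0.20, 0.26 and 0.30 over the replicates. Krt6a and Dsg3, markers of stratified epithelium, were above background on no array. The markers differed among themselves: Upk3a was −0.77, 1.12 and 1.56 over the replicates, Sfn and Krt15 were above 0 in all 3 and Upk3b below 0 in all 3. The part of urothelium in the Trp63 values was not tested.

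Trp73 was read by 2 tested probes. Probe A_52_P410636 ranged from −0.16 to 0.25 with a median of 0.06, and its replicate values were 0.00, −0.02 and 0.17 (mean 0.05 ± 0.10, SD, n = 3; limma adjusted p = 0.778). It was below 0 on 3 arrays and above 0 on 5. Probe A_52_P193555 ranged from −0.05 to 0.25 with a median of 0.13, higher in null on 7 of 8 arrays. Its replicate values were 0.03, 0.24 and 0.18 (limma adjusted p = 0.40). Wild-type RNA was above background on this probe only on slide 1. Null over the wild-type level, set as for Trp63, was 1.18-fold in replicate 2 and 1.11-fold in replicate 3. With wild-type RNA not above background there, these values do not show that null was higher. Of 8 markers of multiciliated cells, where p73 acts, 5 were tested, with medians of 0.07, −0.23 and −0.16 over the replicates.

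How such dim probes are read depends on the background correction. The extraction program, which subtracts background, gave A_52_P193555 of Trp73 log2 ratios of 0.02 in replicate 1, 2.52 in replicate 2 and 1.91 in replicate 3, where the corrected signals with an offset gave 0.24 and 0.18 on slide 2. Net wild-type brightness on that probe was 6 and 2 in replicate 2 and 0 and 5 in replicate 3, against 14, 21, 12 and 21 in null RNA. For Trp63 A_51_P216550 the program gave −0.08, 0.81 and 0.58, a mean of 0.44 against 0.03 with the offset, and an offset of 0 gave 0.19. For the brighter Trp53 probe the program gave −1.35, −0.65 and −0.66, against −1.22, −0.47 and −0.45 with the offset, lowest in replicate 1 both ways. For the other Trp53 probe, A_52_P781398, it gave 0.22, 0.62 and 0.52, a mean of 0.45 against 0.17 with the offset. The sizes of the Trp53 ratios thus depended on the correction too, while their signs did not. The sizes of the Trp63 and Trp73 ratios on slide 2 are thus not settled by these arrays.

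**Figure D3:**
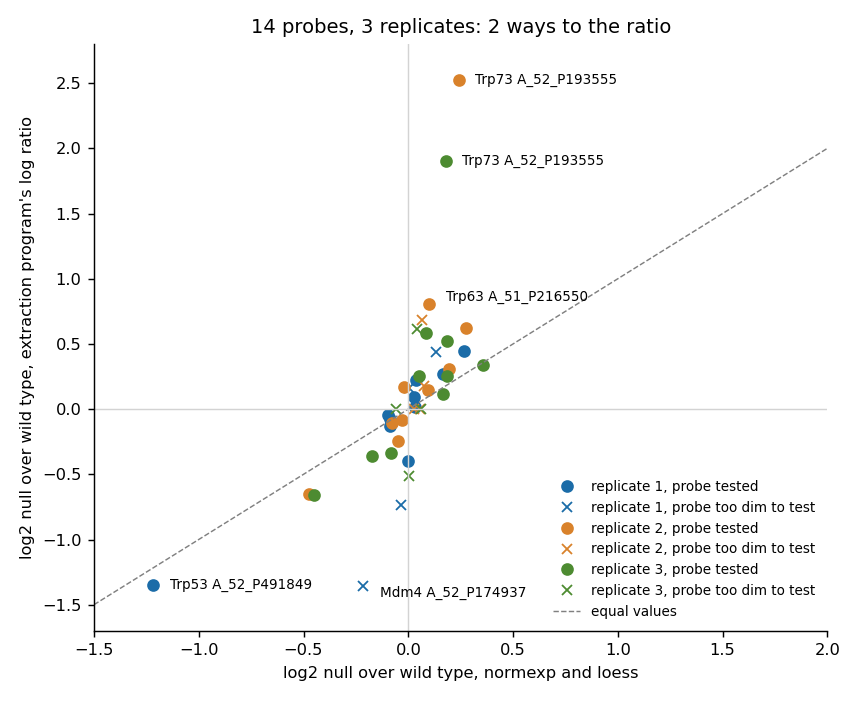
Log2 ratio of null over wild type per replicate for the 14 member probes, from normexp correction and loess (horizontal axis) and from the extraction program's own log ratio (vertical axis), with crosses for probes too dim to test and a dashed line for equal values. Trp53 A_52_P491849 lies a little below the dashed line in every replicate, and Trp73 A_52_P193555 lies far above it in replicates 2 and 3, at 2.52 and 1.91.

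Mdm2, the main ubiquitin ligase of p53 and a p53 target gene, did not change in a common direction. Its probe A_51_P201346 was spotted 10 times. It gave 0.34 and 0.20, then 0.32 and 0.20 on the arrays of replicate 1, 0.04 and −0.10 in replicate 2, and −0.12 and −0.23 in replicate 3. All 4 arrays of replicate 1 were above 0 and above all 4 of slide 2, of which 3 were below 0. Of 79 usable spots, 49 were above 0 and 30 below, and in replicate 1 none was below 0. The replicate values were 0.26, −0.03 and −0.18, and their mean was 0.02 ± 0.22 (SD, n = 3; 95% interval −0.29 to 0.33; limma adjusted p = 0.935). That interval spans 0.819 to 1.26 times the wild-type level. The extraction program's log ratio spread more widely, with 0.45, −0.09 and −0.36 over the replicates (SD 0.41).

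The other Mdm2 probe, A_52_P469842, ranged from −0.07 to 0.33 with a median of 0.02. Its replicate values were 0.17, −0.05 and 0.05 (mean 0.06 ± 0.11, SD, n = 3; limma adjusted p = 0.738). The probe was dim on slide 2. Net brightness in wild-type RNA was 20 and 12 in replicate 2 and 14 and 9 in replicate 3, against 325 to 452 in replicate 1. The extraction program's log ratio gave 0.27, −0.25 and 0.26 over the replicates, so their order on this probe is not settled. The Mdm2 probes differed from each other by 0.10, 0.02 and −0.22 over the replicates. Replicate 1 had the highest ratio on Mdm2 probe A_51_P201346 and the lowest on the brighter Trp53 probe.

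Mdm4, which inhibits p53 without marking it for breakdown, was measured by 1 of its 3 probes. Probe A_51_P176954 ranged from −0.20 to 0.15 with a median of −0.01, below 0 on 4 arrays and above 0 on the other 4. The replicate values were 0.03, −0.08 and −0.08, with a mean of −0.05 ± 0.06 (SD, n = 3; 95% interval −0.25 to 0.16; limma adjusted p = 0.769). With the offset of 50 this was the smallest SD among the 10 tested probes, and the interval spans 0.841 to 1.12 times the wild-type level. The extraction program's log ratio gave 0.09, −0.11 and −0.34 (SD 0.215), a wider spread than that of Ppm1d A_51_P131526 (SD 0.191). The narrow spread and interval of Mdm4 thus depend on the background correction. Probes A_52_P174937 and A_52_P485905 were above background in wild-type RNA on 4 and 2 arrays and in null RNA on 1 and 4, never on slide 2, and were not tested.

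Ppm1d, the phosphatase Wip1 that removes activating phosphates from p53 and its kinases, ranged from −0.26 to 0.29 on probe A_51_P131526, with a median of 0.09. Replicate 1 gave −0.10, replicate 2 gave 0.20 and replicate 3 gave 0.18. The 4 arrays of slide 2 were all above those of replicate 1. The mean was 0.10 ± 0.17 (SD, n = 3; 95% interval −0.17 to 0.36; limma adjusted p = 0.623). The second probe, A_52_P26155, was above background in each genotype only on the 4 arrays of slide 1 and was not tested; its replicate values were 0.00, 0.06 and 0.04.

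Usp7, which removes ubiquitin from Mdm2 and from p53, was read by a single probe, A_51_P454519. It gave −0.40 and 0.20, then −0.36 and 0.22 in replicate 1, −0.04 and 0.22 in replicate 2, and 0.23 and 0.48 in replicate 3. In every pair the array with null RNA in Cy3 was the higher, and the means were −0.06 with null RNA in Cy5 and 0.30 with it in Cy3. This dye gap, −0.37 from Cy5 to Cy3, was larger than the mean ratio of 0.12 ± 0.22 (SD, n = 3; 95% interval −0.19 to 0.43; limma adjusted p = 0.593). The replicate values were −0.09, 0.09 and 0.36, and the sign of the mean was opposite in the 2 dye orientations.

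Of the 10 tested probes the Trp63 probe and A_52_P193555 of Trp73 passed the filter through null RNA alone, so the counts that follow only describe. Across the members the median ratio of the 10 tested probes was 0.05, with 8 above 0 and 2 below, against a median of 0.00 over all tested probes, of which 10494 were above 0 and 10371 below. Apart from the brighter Trp53 probe the means ran from −0.05 to 0.17. The 5 probes called without replicate 1 were both probes of Trp53 (−0.46 and 0.23), A_52_P193555 of Trp73 (0.21), Ppm1d (0.19) and Usp7 (0.22). Trp63 and both probes of Mdm2 and the tested probe of Mdm4 were not among them. In simulated data with 3 independent replicates none of 50 probes changed by 1.5-fold was recovered. Of those changed by 2-fold, 4-fold and 8-fold, 20, 42 and 40 of 50 were. The measured replicates were not alike in this: replicates 2 and 3 correlated at 0.93 over probes, and replicate 1 at 0.06 and −0.15 with them. The recovery counts therefore do not carry over to these arrays. With the offset, the mean differences of the regulators' tested probes were smaller than 1.5-fold. Whether differences of that size could be called on these arrays is not known from the simulation.

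Beyond the negative regulators named above, 42 of 45 other p53 regulators (kinases, ligases, acetylases and binding partners) were tested. None was called, and 25 were lower and 17 higher in null. Their median was −0.08, and 6 (14.3%) had an unadjusted limma p under 0.05, against 17.7% of all named genes, so the share was near the background. Ube4b, a ubiquitin ligase that works with Mdm2, had the smallest p: −0.49, −0.74 and −0.61 over the replicates, mean −0.62, lower on 8 of 8 arrays. Trp53bp1, which binds p53 and marks broken DNA, gave −0.53, −0.75 and −0.49, mean −0.59. Ppp1r13l, the p53 inhibitor iASPP, gave −0.26, −0.41 and −0.34. These 3 lay below 0 on all 8 arrays. Setd7, a lysine methyltransferase, gave 0.46, 0.51 and 0.31, and Gnl3, a nucleolar protein that binds Mdm2, gave 0.09, 0.43 and 0.34. Each of these 5 genes had an adjusted p of 0.27 or 0.286.

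Of the kinases that act on p53 after DNA damage, Atm gave −0.08, −0.21 and −0.17 over the replicates, below 0 on all 8 arrays (mean −0.15, limma adjusted p = 0.362), and Chek2 gave 0.09, 0.01 and 0.04. Prkdc, Atr and Chek1, chosen after their values were seen, had means of −0.17, −0.09 and 0.06, and Atr spread from 0.31 in replicate 1 to −0.34 in replicate 3. Cop1, another ubiquitin ligase of p53, had 0.09, −0.21 and −0.35 over the replicates. Cdkn2a, whose Arf product restrains Mdm2, was on the array but too dim to be tested.

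Of 45 p53 target genes outside the members 38 were tested and none was called, with 24 lower and 14 higher in null. Their median was −0.09 (−0.12, −0.12 and −0.15 over the replicates), and 15 (39.5%) had an unadjusted limma p under 0.05, 13 of them lower, against 17.7% of all named genes. The list was chosen with earlier results of these data known, so this share only describes and is no independent evidence. Cdkn1a, the cell cycle inhibitor p21, gave −0.35, −1.24 and −1.16 over the replicates (mean −0.92 ± 0.49, SD, n = 3; adjusted p = 0.27). It was below 0 on all 8 arrays, with replicate 1 the nearest to 0, where for Trp53 replicate 1 was the farthest. Ccng1, cyclin G1, gave −0.34, −0.68 and −0.84, and Pltp, a phospholipid transfer protein, gave −0.44, −0.76 and −0.66. Epha2, an ephrin receptor, gave −0.32, −0.61 and −0.53, and Xpc, which recognises damaged DNA, gave −0.43, −0.41 and −0.24. All 4 were below 0 on every array, each with an adjusted p of 0.27. Bbc3, the cell death gene Puma, was −0.04 in replicate 1 and −0.54 and −0.52 on slide 2. The means of Bax (−0.07) and Zmat3 (0.06) were closer to 0, as were those of Mdm2 and Ppm1d among the members. Mdm2 and Ppm1d were not steady over the replicates, however. Mdm2 probe A_51_P201346 went from 0.26 in replicate 1 to −0.18 in replicate 3, and Ppm1d from −0.10 in replicate 1 to 0.20 in replicate 2. Phlda3 (mean 0.17) was −0.194 in replicate 1 and 0.356 and 0.335 on slide 2. The lowest mean among the 38 was that of Ddit4, named here after its value was seen. It gave −0.19 in replicate 1 and −3.15 and −3.14 on slide 2 (mean −2.16, limma adjusted p = 0.276), below 0 on all 8 arrays. Of the 14 targets higher in null, 3 are named after their values were seen. Perp had a mean of 0.555 and Trp53inp1 of 0.534, both below 0 in replicate 1. Sfn gave 0.219, 0.409 and 0.301 and was above 0 on all 8 arrays (limma adjusted p = 0.27).

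The 20 tested genes nearest to Trp53 on chromosome 11, in the gene order of GRCm38.p6, had a median of −0.08. Of them 12 were lower and 8 higher, none was called and 3 (15.0%) had an unadjusted limma p under 0.05. Over all named genes tested that share was 17.7%, with 5989 lower and 6011 higher, so the neighbours were near the background. Wrap53, which starts next to Trp53 on the opposite strand and encodes a telomerase-associated protein, was 0.07, 0.03 and −0.03. The next genes on that side, Efnb3, an ephrin ligand, and Dnah2, a dynein chain, had means of −0.24 and −0.16. On the other side Atp1b2, a sodium pump subunit, had −0.14, Sat2, an acetyltransferase, 0.06, and Fxr2, an RNA-binding protein, −0.13. Fxr2 spread from −0.72 in replicate 1 to 0.37 in replicate 3. The lowest of the 20 was Kdm6b, a histone demethylase, the fourth gene on the side of Wrap53 and named here after its value was seen: −0.91, −0.67 and −0.53 over the replicates (mean −0.70, limma adjusted p = 0.27), about as low as Trp53 itself.

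**Figure D4:**
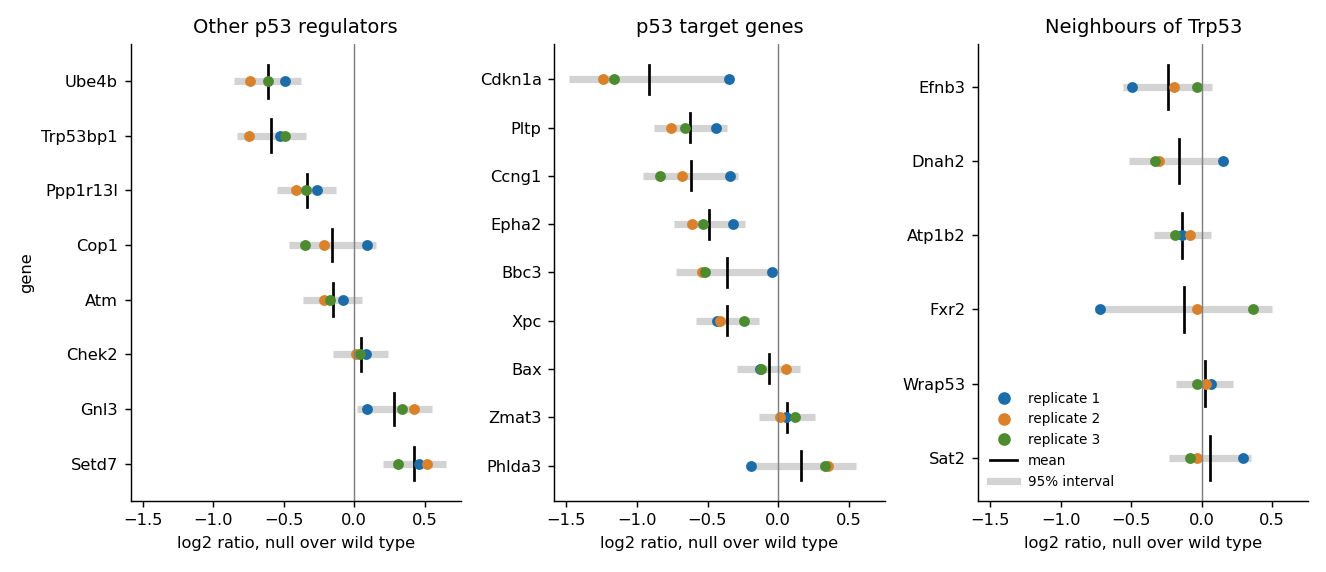
Log2 ratio of null over wild type (horizontal axes) for named genes of the other p53 regulators, the p53 target genes and the nearest neighbours of Trp53, with a coloured point for each replicate, a black line for the mean and a grey bar for limma's 95% interval. Cdkn1a reaches −1.24 in replicate 2 and Ube4b −0.74, while Wrap53, Bax and Zmat3 stay close to 0.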

How the data were processed

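The 8 scanner files hold deposited linear intensity of spots and of their local background. Per the file headers they came from version 10.5.1.1 of Agilent Feature Extraction (6.1 per the submitters' processing notes), whose log10 ratio, Cy5 over Cy3, they also hold as deposited. RNA was labelled by direct dye incorporation, per the labels' protocols. Each file has 43379 spots of probes and 1639 control spots. Median signals were corrected with limma 3.58.1 in R 4.3.3 (normexp, offset 50) after 8 spots of 1 array with a local background over 10 times that array's median were set to missing. Ratios were loess-normalized within arrays with control spots given no weight. Outlier-flagged spots were then dropped, spots of a probe were averaged, and signs were turned so that null stands over wild type. Arrays of a dye orientation were averaged, then both orientations, to 1 value per replicate. A probe was kept if in every replicate 50% or more of its arrays showed the same genotype well above background, which held for 20880, 20865 of them with a value in every replicate. The 3 values were tested against 0 (lmFit, eBayes, Benjamini-Hochberg over all 20865 probes, adjusted p of 0.05). Of 41174 probes 25097 took a symbol from the RefSeq table. The number of arrays limits the precision. The labels call the replicates biological, and if they share RNA or litters the p-values measure less than the spread between animals.

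Named were all member probes; of the other regulators and of the target genes the 5 with the smallest p, and Cdkn2a, Atm, Chek2, Cop1, Cdkn1a, Ccng1, Bax, Bbc3, Zmat3 and Phlda3; of the neighbours the 3 nearest on each side; and the 5 genes nearest to Trp53 in their ratios. A gene is its brightest kept probe. Members and lists were chosen with earlier results of these data known. A marker list of neurons (5 tested, median −0.02) was also read. The same numbered replicate holds both genotypes on each array, so genotypes are paired by the array itself, and the replicate block joins arrays of 1 replicate (correlation 0.778). The fit was tested on simulated data. The alternatives were other background corrections, normalizations, filters, dye orientations, left-out replicates and blocks.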

Additional observations from a re-analysis of the deposited data

Results flagged for a closer look

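A dim probe of Mdm4, A_52_P174937, stood apart on a single array. On the duplicate array of replicate 1 with null RNA in Cy5 its log2 ratio was −0.62, while the other 7 arrays lay between −0.19 and 0.11. The extraction program gave −2.77 there. The gap passed Dixon's 95% value, which chance passes in about 1 of 20 groups. The probe was too dim to be tested, and the tested Mdm4 probe gave −0.20 on that array.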

How the results depend on the processing

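Without replicate 1 the calls rose from 0 to 11699 of 20870 probes (56.1%). Beside that share, 5 of 10 member probes, 26 of 42 other regulators, 27 of 38 target genes and 7 of 20 neighbours were called. Without replicate 2 or 3 each stayed at 0. With slide as a fixed block, the error is only the difference between replicates 2 and 3. In that fit 9277 of 20865 probes were called, among them 1 of 10 member probes (Trp53 A_52_P491849, −0.84, limma adjusted p = 5.66e-12). With the replicate block on 8 arrays 1240 of 20448 probes (6.06%) were called, among them 1 of 10 member probes (the same Trp53 probe). That fit called 4 of 41 other regulators, 8 of 38 target genes and none of 19 neighbours. The lists were chosen with earlier results of these data known, so their counts in these fits only describe. The other alternatives called no member probe, including 2 chosen after seeing the data: keeping the 8 spots with bright background, and averaging replicates 2 and 3 as 1 value.

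Over its 18 alternatives the ratio of Trp53 A_52_P491849 stayed below 0 (−1.22 to −0.46). That of A_52_P781398 stayed above 0 (0.01 to 0.46), as did Trp73 A_52_P193555 (0.03 to 1.48). Trp63 A_51_P216550, 0.03 with the offset of 50, was 0.44 with the program's log ratio, 0.41 with processed signals and 0.19 with offset 0. Signs turned for member probes whose main values lay between −0.05 and 0.12. Mdm2 A_51_P201346 turned to −0.001 with processed signals, −0.042 with null RNA in Cy3 and −0.101 on slide 2, and ran from −0.101 to 0.118 as each replicate was left out. Mdm2 A_52_P469842 turned to −0.015 with null RNA in Cy5. Mdm4 A_51_P176954 turned to 0.064 with median centring, 0.001 with null RNA in Cy3 and 0.027 on slide 1. On slide 1, Ppm1d was −0.096, Usp7 −0.086 and Trp63 −0.089. Usp7 was −0.063 with null RNA in Cy5. Trp63 was −0.011 with null RNA in Cy3 and ran from −0.002 to 0.093 as each replicate was left out. Trp73 A_52_P410636 turned to −0.041 with processed signals, −0.036 with the program's log ratio, −0.052 with null RNA in Cy5 and −0.003 on slide 1, and ran from −0.012 to 0.081 as each replicate was left out. Causes were not tested, and dim wild-type signal on slide 2 limits Trp63, Trp73, Mdm2 A_52_P469842 and the untested probes.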
